A study of Mus musculus with 18 samples.

Results

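The genes examined here encode the enzymes, sensors and transporters with which a cell makes, senses and exports cholesterol and makes fatty acids. They were taken from a list of 32 genes with this function, chosen by name and with earlier results of these data known. Of the 37991 gene rows in the count files, 31 were matched to the list by Ensembl identifier (Hmgcs1 was not analysed here). All 31 passed the filter on low counts, a mean of at least 3 normalized counts in at least 1 group. They were followed in splenic CD4 T cells, magnetically enriched from Tg4-H2u mice aged 6 to 12 weeks, by RNA-seq of 6 groups with 3 replicates each, 18 libraries in all. All mice carried the Tg4 transgene, a TCR specific for a peptide of myelin basic protein, so that most of their CD4 T cells recognize the same Ag. Tolerized mice (T) had received 7 escalating subcutaneous doses of the altered peptide 4Y at intervals of 3 to 4 days and control mice (N, mostly naive cells) PBS on the same schedule. N0 and T0 cells were harvested 2 h after a final injection of PBS, and NAg and TAg cells 2 h after a final injection of 80 ug of 4Y peptide. NPI and TPI cells were cultured for 2 h with 20 ng/ml PMA and 2 uM of the calcium ionophore A23187 (PI), which together act downstream of the TCR.

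Cholesterol is built from acetyl-CoA through mevalonate and isoprenoids to squalene, which is closed to a ring and trimmed to cholesterol. When sterol is scarce, SCAP escorts the SREBP factors (encoded by Srebf1 and Srebf2) out of the endoplasmic reticulum and they switch on these genes, while the INSIG proteins hold SCAP back when sterol is plentiful. Fatty acid synthesis starts from the same acetyl-CoA, and T cells that prepare to divide make both kinds of lipid for new membranes.

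Total counts per library ranged from 10758571 to 24119489. A normalized count is a read count divided by the TMM-scaled size of its library, relative to the geometric mean of all libraries, and it compares 1 gene between samples. Each adjusted p is a Benjamini-Hochberg value of edgeR's quasi-likelihood test over the 17240 genes tested, and a gene was called higher or lower at an adjusted p under 0.05. Each fold change is given on the log2 scale with an SE. This SE is the absolute log2 fold change divided by the square root of the F statistic of the same test, so it is not independent of the p. Reads of Y-linked genes reached 5111 counts or more in all NPI and TPI libraries, T0 replicates 1 and 2 and TAg replicate 3, and stayed at or under 18 in the other 9 libraries. In NPI:N0, therefore, PI, culture and the sex of the mice cannot be told apart, and no cultured cells without PI were among the 6 groups. All 7 CD4 T cell markers were detected in every group, but their sums differed by treatment. They were 25184 to 26256 normalized counts per library in N0, 21670 to 26187 in T0, 13039 to 14471 in NAg and 16677 to 19584 in TAg. After PI they were 47468 to 52755 in NPI and 49319 to 52325 in TPI. The 8 neutrophil markers summed to 71.4 to 177.3 in N0 but 1676 to 2969 in T0, and 130.4 to 364.0 in NAg but 2162 to 3969 in TAg. Erythroid markers (7 genes) stood apart in T0 replicate 1 (1895) and TAg replicate 3 (1136), against 13.6 to 320.2 in the other 16 libraries. In such enriched populations, fewer cells of a type and less RNA per cell cannot be told apart.

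Levels of different genes were compared per kilobase of exon. In N0 the highest member was Srebf2 with a mean of 718 normalized counts per kb, followed by Acly, which makes cytosolic acetyl-CoA from citrate (535), the sterol exporter gene Abcg1 (353) and Fasn, the fatty acid synthase (291). The pathway enzymes of sterol synthesis lay lower, from 28.3 normalized counts per kb for Hsd17b7 to 151 for Fdps. At the bottom was the fatty acid desaturase gene Fads2 with 1.995, which stands on 2 to 5 reads per library.

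After Ag the genes split into a rising and a falling set. In NAg:N0, 12 of 31 genes were higher, against 32.1% of all genes tested, and 16 were lower, against 33.4%. In TAg:T0, 13 were higher, against 29.9% of all genes, and 11 were lower, against 29.8%. Both comparisons, which share no libraries, called 10 genes higher (Acaca, Cyp51, Elovl6, Fasn, Hsd17b7, Idi1, Insig1, Scap, Sqle and Srebf2) and 11 lower (Abca1, Abcg1, Acat2, Dhcr7, Fads1, Insig2, Mvd, Mvk, Nsdhl, Scd2 and Tm7sf2). The share of all genes called the same way in both was not counted. These shared calls are therefore a description and not a trait of this gene set. The median log2 fold change of the 31 genes was -0.35 in NAg:N0 and 0.17 in TAg:T0, against 0.0 and -0.053 over all genes tested.

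**Figure D1:**
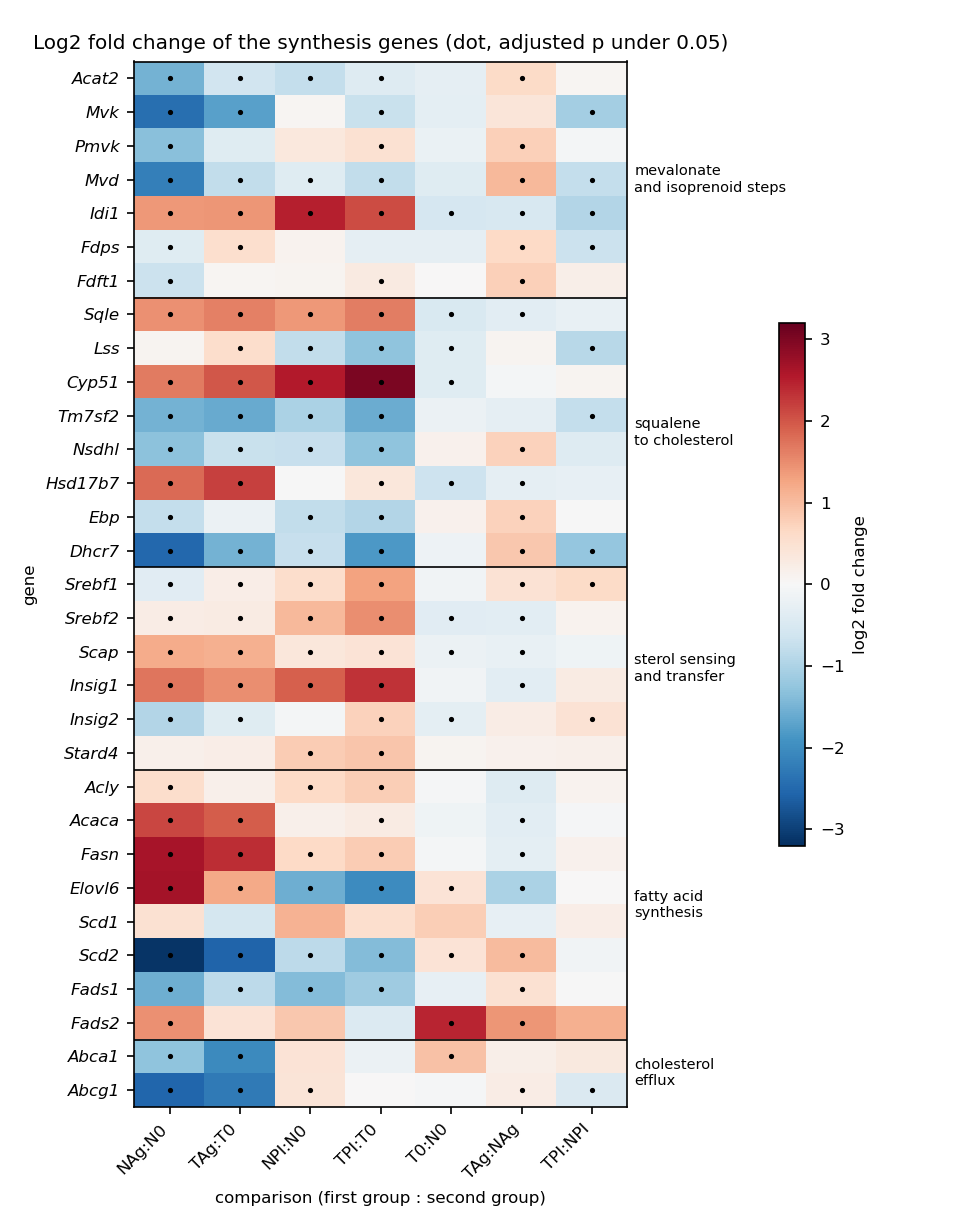
Heat map of the log2 fold change of the 31 matched genes (rows, by role) in 7 comparisons of groups (columns); a black dot marks an adjusted p under 0.05. The mevalonate, squalene and fatty acid roles hold both red and blue rows in each of the 4 response columns. The sterol sensing rows are all red in TPI:T0, and both efflux rows are blue in NAg:N0 and TAg:T0. Values in these columns run from -3.14 for Scd2 in NAg:N0 to 3.00 for Cyp51 in TPI:T0, and the T0:N0 column is pale apart from Fads2 at 2.44.

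Of the 8 fatty acid synthesis genes, 5 rose and 2 fell in NAg:N0, and 3 rose and 2 fell in TAg:T0. Of all genes tested, 32.1% were called higher and 33.4% lower in NAg:N0, and 29.9% and 29.8% in TAg:T0. Fasn, which assembles palmitate, had 3002, 2751 and 2855 normalized counts in the 3 N0 libraries and 16140.4, 18294 and 18998 in NAg, with 2639, 2658 and 3014 in T0 and 14399.5, 14157 and 14375 in TAg. Each Ag library lay above all resting ones, and the log2 fold change was 2.63 ± 0.07, adjusted p = 1.37e-19 in naive and 2.37 ± 0.07, adjusted p = 1.43e-18 in tolerized cells. Acaca encodes acetyl-CoA carboxylase, the committed step before Fasn. It had 1004, 1031 and 939 in N0 and 3974, 4954 and 4247 in NAg, with 829.7, 887 and 994 in T0 and 3571, 3505 and 3275 in TAg, again with no overlap. Its log2 fold change was 2.15 ± 0.09, adjusted p = 6.17e-17 in naive and 1.93 ± 0.08, adjusted p = 7.56e-16 in tolerized cells.

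Elovl6, which lengthens palmitate to stearate, rose from 236, 255 and 239 normalized counts in N0 to 1246, 1908 and 1469 in NAg, and from 356, 329 and 307 in T0 to 736, 856 and 707 in TAg. The rise was 2.66 ± 0.13, adjusted p = 6.67e-15 on the log2 scale in naive cells and 1.21 ± 0.12, adjusted p = 7.5e-09 in tolerized cells, where the starting level was higher and the level after Ag lower in every library. For Acly, values of 2809, 2993 and 2674 in N0 and 4047, 4449 and 3957 in NAg gave a log2 fold change of 0.55 ± 0.08, adjusted p = 4.68e-07, while 2612, 2589 and 3104 in T0 and 3155, 3018 and 3171 in TAg gave 0.17 ± 0.08, adjusted p = 0.0544, which was not called.

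Of the desaturases, which put double bonds into fatty acids, Scd2 and Fads1 went the other way. Scd2, a stearoyl-CoA desaturase, had 731, 676 and 566 normalized counts in N0 and 81.5, 67 and 74.8 in NAg, and 916, 898 and 860.3 in T0 and 106, 151 and 196 in TAg. With no overlap between resting and Ag libraries, its log2 fold changes of -3.14 ± 0.16, adjusted p = 8.08e-14 and -2.56 ± 0.14, adjusted p = 8.53e-13 were the largest falls of the 31 genes in both comparisons. Fads1, the delta-5 desaturase of polyunsaturated fatty acids, fell from 248, 243 and 223 in N0 to 56.3, 86.9 and 95.7 in NAg and from 182, 205 and 208 in T0 to 117, 91.8 and 124 in TAg. The log2 fold changes of Fads1 were -1.57 ± 0.16, adjusted p = 3.26e-09 and -0.84 ± 0.15, adjusted p = 4.02e-05. Fads2 and Scd1 are taken up separately below, the first for its low counts and the second for its spread within groups.

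In the mevalonate and isoprenoid steps, 6 of 7 genes fell in NAg:N0, against 33.4% of all genes tested, and only Idi1 rose. Mvk, mevalonate kinase, had 144, 128 and 134 normalized counts in N0 and 33.6, 21.1 and 20.9 in NAg, and 121, 101 and 107 in T0 and 33, 35.8 and 30.7 in TAg. Its log2 fold changes were -2.42 ± 0.20, adjusted p = 7.97e-11 and -1.73 ± 0.19, adjusted p = 2.3e-08, with raw counts of 18 to 30 per library after Ag. Mvd, the decarboxylase 2 steps later, fell from 136, 115 and 127 in N0 to 32.4, 22.3 and 27.5 in NAg and from 105, 95.4 and 89.2 in T0 to 63.9, 45.3 and 58.4 in TAg, log2 fold changes of -2.20 ± 0.20, adjusted p = 4.22e-10 and -0.79 ± 0.18, adjusted p = 0.000538. Idi1 encodes the isomerase that acts on the product of Mvd. Its values were 63.4, 94 and 95.2 in N0 and 198, 222 and 244 in NAg, and 54.8, 67.1 and 51.8 in T0 and 153, 129 and 182 in TAg, with log2 fold changes of 1.40 ± 0.16, adjusted p = 3.86e-08 and 1.42 ± 0.17, adjusted p = 9.06e-08. Neighbouring steps of 1 pathway thus moved in opposite directions in both cell states.

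Of the other 4 genes of these steps, Acat2, a cytosolic thiolase that joins 2 acetyl-CoA, had 142, 186 and 158 normalized counts in N0, 55.1, 49.3 and 64.9 in NAg, 118, 121 and 161 in T0 and 91.4, 81.1 and 88.1 in TAg. It fell in both comparisons, by 1.51 on the log2 scale in naive cells (adjusted p = 2.07e-08) and by 0.61 in tolerized cells (adjusted p = 0.00199). Pmvk, phosphomevalonate kinase, had 70.3, 73.1 and 74.4 in N0, 33.6, 25.9 and 26.4 in NAg, 50.4, 68 and 71 in T0 and 41.8, 46.5 and 56.4 in TAg. It was called only in naive cells (-1.34 ± 0.21, adjusted p = 3.17e-06, against -0.38 ± 0.19, adjusted p = 0.0912 in tolerized cells). Fdft1, squalene synthase, likewise had 223, 235 and 244 in N0, 153, 136 and 145 in NAg, 254, 228 and 226 in T0 and 233, 232 and 270.5 in TAg, and was called only in naive cells (-0.69 ± 0.11, adjusted p = 7.4e-06). Exons of Fdft1 share 769 bases, 26.9% of their length, with Ctsb on the opposite strand, and the strand setting of the counting is not given in the sources used here. Fdps, farnesyl diphosphate synthase, was called in opposite directions, lower in naive and higher in tolerized cells. Its values were 191, 152 and 214 in N0, 159, 123 and 143 in NAg, 149.5, 154 and 151 in T0 and 204, 217 and 239.7 in TAg, with log2 fold changes of -0.39 ± 0.16, adjusted p = 0.0314 and 0.54 ± 0.15, adjusted p = 0.00341. The N0 and NAg values overlap. The fall was lost with DESeq2, with its size factors and without N0 replicate 3 or NAg replicate 2 or 3 (adjusted p up to 0.137 over all alternatives).

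From squalene to cholesterol, 3 of 8 genes rose and 4 fell in NAg:N0, and 4 rose and 3 fell in TAg:T0. The shares over all genes tested were 32.1% higher and 33.4% lower in NAg:N0, and 29.9% and 29.8% in TAg:T0. Cyp51, the lanosterol demethylase, had 462, 474 and 473 normalized counts in N0 and 1390.3, 1376 and 1665 in NAg, and 379.5, 379 and 322 in T0 and 1213, 1460.5 and 1584 in TAg. It rose in both states, by 1.65 ± 0.10, adjusted p = 2.48e-13 and 1.98 ± 0.10, adjusted p = 1.72e-14 on the log2 scale. Sqle, squalene epoxidase, rose from 321, 389 and 418 to 1061, 954 and 1079 in naive and from 279, 306 and 219 to 832, 738 and 869 in tolerized cells, log2 fold changes of 1.45 ± 0.11, adjusted p = 1.21e-11 and 1.60 ± 0.11, adjusted p = 4.5e-12. Hsd17b7, a 3-ketosteroid reductase, had 154, 142 and 138 in N0 and 536, 462 and 517 in NAg, and 92.9, 105 and 74.8 in T0 and 398, 398 and 453 in TAg. Its log2 fold changes of 1.80 ± 0.12, adjusted p = 9.93e-13 and 2.19 ± 0.12, adjusted p = 8.15e-14 were the highest of these 8 genes in both comparisons, with no overlap between resting and Ag libraries.

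Dhcr7 encodes the reductase that finishes cholesterol. It fell from 317, 325 and 314 normalized counts in N0 to 49.1, 56.4 and 60.5 in NAg and from 264, 305 and 289 in T0 to 83.7, 107 and 109.6 in TAg, log2 fold changes of -2.52 ± 0.15, adjusted p = 1.4e-13 and -1.51 ± 0.14, adjusted p = 7.56e-10. Tm7sf2, a sterol reductase, had 134, 111 and 112 in N0, 40.8, 51.7 and 31.9 in NAg, 106, 104 and 103 in T0 and 28.6, 37 and 35.9 in TAg. It fell in both states (-1.52 ± 0.18, adjusted p = 7.67e-08 and -1.62 ± 0.19, adjusted p = 4.79e-08), and 532 bases of its exons overlap another annotated gene, 1110014N23Rik, on the same strand. Nsdhl, a demethylating dehydrogenase, fell from 139, 159.7 and 134 to 68.3, 56.4 and 48.4 in naive cells and from 169, 139 and 169 to 95.8, 108 and 85 in tolerized cells, by 1.32 and 0.72 on the log2 scale (adjusted p = 3.06e-07 and 0.000455). Ebp, a sterol isomerase, had 252, 204 and 185 in N0, 129, 105 and 141 in NAg, 236, 216 and 251 in T0 and 189, 209.8 and 223 in TAg and was called only in naive cells (-0.77 ± 0.13, adjusted p = 1.65e-05). Lss, which closes the sterol ring, was called only in tolerized cells. Its values were 415, 510.5 and 398 in N0, 478, 457 and 476 in NAg, 339, 367 and 295 in T0 and 509, 495 and 488 in TAg, and its log2 fold change was 0.09 ± 0.10, adjusted p = 0.436 in naive and 0.57 ± 0.10, adjusted p = 3.1e-05 in tolerized cells.

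**Figure D2:**
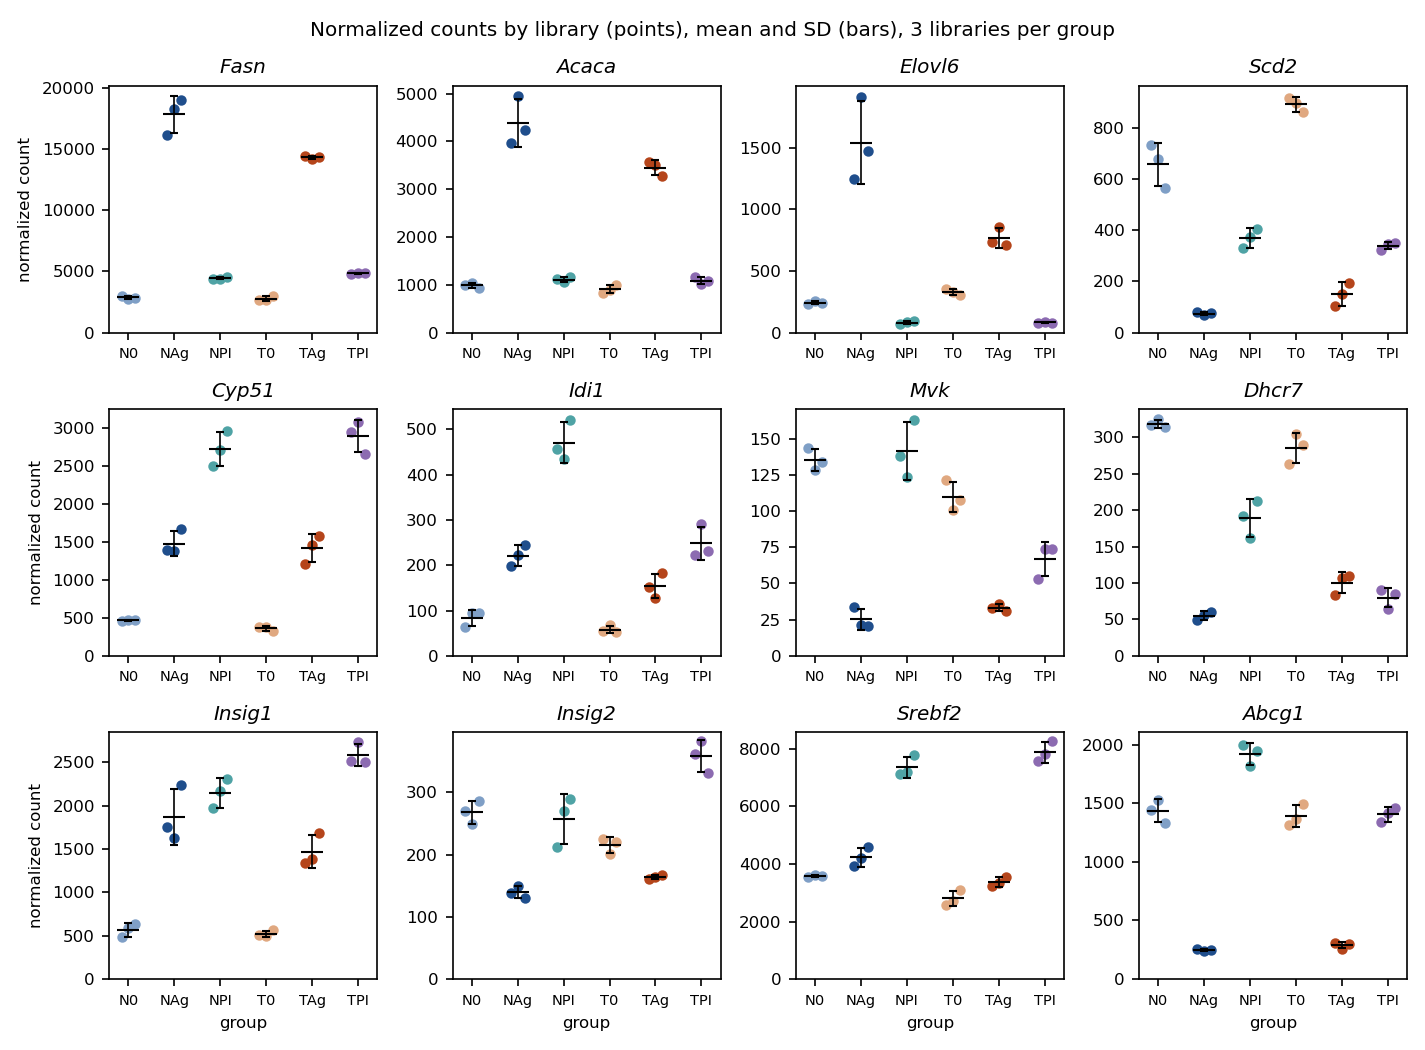
Normalized counts (vertical axes, each from 0) of 12 genes in the 18 libraries by group (horizontal axes); points are libraries, the horizontal bar is the mean and the whiskers are the SD of 3 libraries. Fasn, Acaca and Elovl6 peak in NAg and TAg, Cyp51, Idi1, Insig1 and Srebf2 are highest in NPI or TPI, and Scd2, Mvk, Dhcr7 and Abcg1 drop in NAg and TAg.

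The sterol sensors also split. Insig1, which is itself an SREBP target, had 480.4, 588 and 639 normalized counts in N0 and 1753, 1622 and 2239 in NAg, and 508, 497 and 565 in T0 and 1333, 1388 and 1688 in TAg, log2 fold changes of 1.72 ± 0.12, adjusted p = 1.53e-10 and 1.49 ± 0.12, adjusted p = 1.88e-09. Its paralogue Insig2 fell, from 270.4, 248 and 286 in N0 to 139, 149 and 129.8 in NAg and from 226, 200.5 and 219.6 in T0 to 161, 163 and 168 in TAg, log2 fold changes of -0.95 ± 0.12, adjusted p = 1.23e-07 and -0.39 ± 0.12, adjusted p = 0.00533. Scap rose from 1239, 1152 and 1179 to 2569.6, 2795 and 2774 in naive cells and from 1049.9, 999.8 and 1071 to 2399.9, 2274 and 2217 in tolerized cells. The log2 fold changes of Scap were 1.19 ± 0.06, adjusted p = 1.96e-14 and 1.14 ± 0.06, adjusted p = 7.11e-14, and 985 bases of its exons overlap 5830462I19Rik on the opposite strand.

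The SREBP genes themselves moved little after Ag. Srebf2 had 3544, 3609 and 3588 normalized counts in N0, 3922, 4199.8 and 4584 in NAg, 2583, 2727 and 3108 in T0 and 3243, 3322 and 3551 in TAg. Its log2 fold changes of 0.24 ± 0.07, adjusted p = 0.00608 and 0.27 ± 0.07, adjusted p = 0.00346 were called, but the first was lost when any N0 replicate was left out and the second without T0 replicate 1 (adjusted p up to 0.0649 and 0.07 over all alternatives). Srebf1 had 1195, 1216 and 1209 in N0, 909.7, 934 and 993 in NAg, 1073, 1124 and 1159 in T0 and 1284, 1261 and 1348 in TAg. It was lower after Ag in naive cells (-0.35 ± 0.07, adjusted p = 0.000136) and higher in tolerized cells (0.22 ± 0.07, adjusted p = 0.0114), the latter lost without T0 replicate 1 or 2 (adjusted p up to 0.119). Stard4, a carrier of cholesterol in the cytosol, was not called after Ag, with 377, 462 and 452 in N0, 452, 500.5 and 490.5 in NAg, 444, 433 and 490.1 in T0 and 495, 582 and 501 in TAg.

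Both exporters of cholesterol fell. Abcg1, which passes sterol to HDL, had 1446, 1529 and 1332 normalized counts in N0 and 254, 241 and 246 in NAg, and 1314, 1366 and 1497 in T0 and 309, 259.9 and 298 in TAg, log2 fold changes of -2.54 ± 0.08, adjusted p = 2.49e-18 and -2.27 ± 0.08, adjusted p = 2.49e-17. Abca1, which passes cholesterol to apolipoprotein A-I, fell from 368, 408 and 327 in N0 to 226, 90.5 and 138 in NAg and from 766, 680.1 and 661 in T0 to 195, 126 and 192 in TAg. The log2 fold changes of Abca1 were -1.28 ± 0.24, adjusted p = 0.000247 and -2.03 ± 0.23, adjusted p = 1.88e-06. The highest NAg library, replicate 1, was also the highest in macrophage markers (7 genes, sum of 1171 against 303.5 and 414.7 in the other two), and Abca1 was called lower in both comparisons also with the macrophage and neutrophil markers among the covariates.

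After PI, too, members moved in both directions. In NPI:N0, 11 of 31 genes were higher, against 28.6% of all genes tested, and 10 were lower, against 32.7%. In TPI:T0, 15 were higher, against 32% of all genes tested, and 11 were lower, against 36.3%. The median log2 fold change of all genes in TPI:T0 was -0.102, or -0.064 with DESeq2 size factors, and that of the 31 genes 0.27. The comparisons with Ag and with PI share the resting libraries, so their values are only set side by side.

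Most sterol sensing genes rose after PI, 5 of 6 in naive and 6 of 6 in tolerized cells. Of all genes tested, 28.6% were called higher in NPI:N0 and 32% in TPI:T0. Srebf2, with little change after Ag, reached 7119, 7185 and 7769 normalized counts in NPI and 7565, 7817 and 8282 in TPI, log2 fold changes of 1.04 ± 0.07, adjusted p = 1.57e-11 and 1.49 ± 0.08, adjusted p = 1.28e-14 over the resting values above. Srebf1 reached 1796, 1616 and 1912 in NPI and 2702, 2545 and 2899 in TPI, log2 fold changes of 0.56 ± 0.07, adjusted p = 2.4e-07 and 1.28 ± 0.07, adjusted p = 6.77e-14. Insig1 had 1969, 2171 and 2309.7 in NPI and 2514, 2732 and 2508 in TPI, and rose by 1.92 ± 0.12, adjusted p = 6.17e-11 and 2.30 ± 0.12, adjusted p = 2.49e-12. All PI libraries lay above all resting libraries for these 3 genes.

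Insig2 was called only in TPI:T0, with 212, 270.5 and 289.5 in NPI and 361, 382 and 332 in TPI and log2 fold changes of -0.06 ± 0.11, adjusted p = 0.676 and 0.73 ± 0.11, adjusted p = 2.36e-06. Scap had 1599, 1511 and 1503 in NPI and 1415, 1361 and 1427 in TPI, smaller rises of 0.37 ± 0.06, adjusted p = 1.87e-05 and 0.43 ± 0.06, adjusted p = 1.81e-06. Stard4 rose to 675, 802 and 775 in NPI and 872, 869 and 792 in TPI, by 0.80 ± 0.09, adjusted p = 6.51e-08 and 0.89 ± 0.09, adjusted p = 6.61e-09 on the log2 scale.

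Among the enzymes, Cyp51 rose most, to 2504, 2716 and 2957 normalized counts in NPI and 2947, 3075 and 2657 in TPI. Its log2 fold changes were 2.54 ± 0.10, adjusted p = 2.9e-16 and 3.00 ± 0.10, adjusted p = 8.73e-18. Idi1 reached 457, 435 and 521 in NPI and 224, 291 and 232 in TPI (2.49 ± 0.16, adjusted p = 1.65e-12 and 2.09 ± 0.16, adjusted p = 4.81e-11), and Sqle 955, 939 and 1048 in NPI and 824, 896 and 777 in TPI (1.38 ± 0.11, adjusted p = 6.76e-11 and 1.63 ± 0.11, adjusted p = 2.82e-12). These 3 genes rose after both stimuli in both cell states.

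In fatty acid synthesis, 2 of 8 genes rose and 3 fell in NPI:N0, and 3 rose and 3 fell in TPI:T0. The shares over all genes tested were 28.6% higher and 32.7% lower in NPI:N0, and 32% and 36.3% in TPI:T0. Fasn had 4411, 4375 and 4557 normalized counts in NPI and 4826, 4861 and 4897 in TPI, log2 fold changes of 0.63 ± 0.07, adjusted p = 3.17e-08 and 0.81 ± 0.07, adjusted p = 3e-10. Acaca had 1115, 1058 and 1161 in NPI and 1163, 1022 and 1079.5 in TPI. It was not called in naive cells (0.17 ± 0.08, adjusted p = 0.0918), and the call in tolerized cells (0.27 ± 0.08, adjusted p = 0.00641) was lost without T0 replicate 1 and with the marker covariates (adjusted p up to 0.741). Acly rose to 4522, 4325 and 4298 in NPI and 4483, 4683 and 5106 in TPI (0.63 ± 0.08, adjusted p = 8.48e-08 and 0.78 ± 0.07, adjusted p = 1.74e-09).

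Elovl6 was lower after PI, the reverse of its change after Ag. It fell to 69.7, 84.7 and 90.8 normalized counts in NPI and 80.8, 90 and 77 in TPI, log2 fold changes of -1.57 ± 0.15, adjusted p = 3.22e-09 and -2.01 ± 0.14, adjusted p = 1.46e-11. Fads1 fell to 84.3, 95.7 and 90.8 in NPI and 86.5, 81.2 and 99.5 in TPI (-1.40 ± 0.15, adjusted p = 2.62e-08 and -1.15 ± 0.15, adjusted p = 3.95e-07). Scd2 fell to 329, 375 and 404 in NPI and 322, 347 and 349 in TPI (-0.83 ± 0.13, adjusted p = 1.27e-05 and -1.39 ± 0.13, adjusted p = 4.79e-09).

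From squalene to cholesterol, 2 of 8 genes rose and 5 fell in NPI:N0, and 3 rose and 5 fell in TPI:T0. Over all genes tested, 28.6% were called higher and 32.7% lower in NPI:N0, and 32% and 36.3% in TPI:T0. Dhcr7 had 192, 162 and 213 normalized counts in NPI and 90.5, 64.8 and 84.2 in TPI, log2 fold changes of -0.75 ± 0.13, adjusted p = 2.03e-05 and -1.83 ± 0.14, adjusted p = 2.19e-11. Tm7sf2 had 66.6, 57.2 and 51.8 in NPI and 37.2, 35.1 and 31.2 in TPI (-1.02 ± 0.17, adjusted p = 1.7e-05 and -1.60 ± 0.18, adjusted p = 3.26e-08). Lss fell to 277, 225 and 266 in NPI and 131, 146 and 136 in TPI (-0.78 ± 0.10, adjusted p = 5.93e-07 and -1.28 ± 0.11, adjusted p = 2.47e-10). Nsdhl and Ebp were lower too, with means of 85.8 and 64.0 for Nsdhl and 123.1 and 122.4 for Ebp in NPI and TPI, and log2 fold changes between -0.74 and -1.30. Hsd17b7, a strong riser after Ag, had 132, 139 and 155 in NPI and 131, 112 and 111 in TPI, with log2 fold changes of -0.02 ± 0.12, adjusted p = 0.892 and 0.37 ± 0.13, adjusted p = 0.013. Of the early steps, Mvk had 138, 123 and 163 in NPI, overlapping N0, and 53.3, 73.5 and 74 in TPI, below all T0 libraries (0.07 ± 0.16, adjusted p = 0.738 and -0.72 ± 0.17, adjusted p = 0.000747). Mvd, with 101, 79.2 and 106 in NPI and 46, 62.6 and 60.3 in TPI, was called lower in both (-0.40 ± 0.17, adjusted p = 0.0461 and -0.78 ± 0.18, adjusted p = 0.000388), the first lost under 10 alternatives, 4 of which left out 1 library (N0 replicate 1 or 3, NPI replicate 1 or 2). With the marker covariates the TPI:T0 calls of Mvk (-0.39, adjusted p = 0.427) and Mvd (-0.78, adjusted p = 0.0878) were lost, and the neutrophil markers summed to 1676 to 2969 in T0 and 395.1 to 669.3 in TPI. Acat2 was called lower in both as well (-0.77 ± 0.16, adjusted p = 0.000168 and -0.42 ± 0.16, adjusted p = 0.0206), with means of 94.3 in NPI and 99.0 in TPI. Its TPI:T0 call was lost without T0 replicate 3 or TPI replicate 1 or 2, with DESeq2, with the Y-linked covariate and with the marker covariates (-0.11, adjusted p = 0.808). With the Y-linked covariate the NPI:N0 calls of Nsdhl (adjusted p = 0.064) and Acat2 (adjusted p = 0.0527) were lost. Small TPI:T0 rises of Pmvk (0.48), Hsd17b7 (0.37) and Fdft1 (0.28) were each lost without 2 to 4 of the 6 libraries left out 1 at a time. Those of Pmvk (adjusted p = 0.0671) and Hsd17b7 (adjusted p = 0.19) were also lost with the marker covariates, and those of Hsd17b7 and Fdft1 with the Y-linked covariate.

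The exporters, which had dropped after Ag, were not called lower after PI. Abcg1 had 1999, 1818 and 1948 normalized counts in NPI and 1338, 1416 and 1462 in TPI, log2 fold changes of 0.42 ± 0.07, adjusted p = 2.67e-05 and 0.01 ± 0.07, adjusted p = 0.879. Abca1 had 473, 465 and 564 in NPI and 548, 676 and 644 in TPI and was called in neither (0.45 ± 0.22, adjusted p = 0.0902 and -0.18 ± 0.21, adjusted p = 0.472).

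Between tolerized and naive cells at rest, 12 of 31 genes differed. In T0:N0, 4 of 31 genes were higher, against 8.42% of all genes tested, and 8 were lower, against 12%. The higher genes were Fads2 (2.44), Abca1 (0.93), Elovl6 (0.44) and Scd2 (0.44). In each of them the libraries of both groups were apart, as in 17 of the 31 genes, called or not. The lower genes were Hsd17b7 (-0.66), Idi1 (-0.54), Sqle (-0.49), Lss (-0.40), Cyp51 (-0.38), Srebf2 (-0.35), Insig2 (-0.32) and Scap (-0.19). For Hsd17b7 the log2 fold change was -0.66 ± 0.13, adjusted p = 0.000692, for Idi1 -0.54 ± 0.18, adjusted p = 0.0362 and for Sqle -0.49 ± 0.11, adjusted p = 0.0033. Abca1 gave 0.93 ± 0.22, adjusted p = 0.0073 and Elovl6 0.44 ± 0.13, adjusted p = 0.017.

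Marker genes of other cells also differed between N0 and T0. All 8 neutrophil markers, 2 of 7 erythroid markers and 4 of 5 markers of dividing cells were called higher in T0, and with the log2 sums of the erythroid and of the neutrophil and macrophage markers as 2 covariates all 12 calls were lost (adjusted p from 0.0886 to 0.984). The SEs of these 12 genes became 1.84 to 2.63 times as wide. The log2 fold change of Hsd17b7 was then -0.72 ± 0.28, that of Sqle -0.43 ± 0.25, that of Srebf2 -0.36 ± 0.18 and that of Elovl6 1.06 ± 0.25, while Fads2 was at 0.34 ± 0.99 and Lss at -0.19 ± 0.24. Abca1 (-0.08) and Scd2 (-0.11) had the opposite sign. Leaving out 1 library called 2 to 4 of the higher and 5 to 6 of the lower genes, the fewest without N0 replicate 3 or T0 replicate 1 (2 higher and 5 lower in each case). A fit of the N0 and T0 libraries alone called 2 lower, and the Y-linked covariate gave 1 higher. The call of Insig2 was lost in 13 of 14 alternatives and that of Scap in 9.

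After Ag, tolerized cells had more transcript of most mevalonate genes in the main fit, while the fatty acid synthesis genes split. Of these 8 genes, 3 were higher (Scd2, Fads1 and Fads2) and 4 lower. In TAg:NAg, 13 of 31 genes were higher, against 20.9% of all genes tested, and 10 were lower, against 18.5%. Higher were 5 of the 7 mevalonate and isoprenoid genes, among them Mvd (1.03 ± 0.21, adjusted p = 0.00042), Fdft1 (0.76 ± 0.11, adjusted p = 9.97e-06) and Fdps (0.63 ± 0.16, adjusted p = 0.00218). Scd2 (1.02 ± 0.17, adjusted p = 8.01e-05), Dhcr7 (0.85 ± 0.16, adjusted p = 0.000164) and Srebf1 (0.46 ± 0.07, adjusted p = 2.15e-05) were higher too. Lower were Elovl6 (-1.01 ± 0.12, adjusted p = 4.95e-07), Idi1 (-0.51 ± 0.15, adjusted p = 0.00997), Acly (-0.41 ± 0.08, adjusted p = 0.00011), Acaca (-0.35 ± 0.08, adjusted p = 0.0013) and Fasn (-0.32 ± 0.07, adjusted p = 0.000817) among others. With the marker covariates 2 higher genes (Srebf1 and Dhcr7) and 1 lower gene (Acly) were called, and none of the 5 mevalonate and isoprenoid genes. The SEs of the 23 genes were 1.74 to 2.2 times as wide. Mvd was then at 1.03 ± 0.39 (adjusted p = 0.0998) and Elovl6 at -0.54 ± 0.21 (adjusted p = 0.114). Without TAg replicate 2 the lower genes numbered 6. The neutrophil markers given above were higher in every TAg than in every NAg library.

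After PI the differences were fewer. In TPI:NPI, 2 of 31 genes were higher, against 18.2% of all genes tested, and 8 were lower, against 19.7%. The higher genes were Srebf1 (0.61 ± 0.07, adjusted p = 2.03e-07) and Insig2 (0.47 ± 0.11, adjusted p = 0.00122). The lower genes were Dhcr7 (-1.23 ± 0.14, adjusted p = 2.03e-07), Mvk (-1.08 ± 0.17, adjusted p = 1.81e-05), Idi1 (-0.93 ± 0.14, adjusted p = 1.29e-05), Lss (-0.90 ± 0.11, adjusted p = 8.26e-07), Mvd, Tm7sf2, Fdps and Abcg1, the last 4 between -0.45 and -0.77. Dhcr7, Mvd, Fdps and Abcg1 were thus called higher in tolerized cells after Ag and lower after PI, though the call of Abcg1 in TAg:NAg was lost in 12 of 14 alternatives. With the marker covariates the TAg:NAg calls of Mvd (1.03 ± 0.39, adjusted p = 0.0998) and Fdps (0.22 ± 0.30, adjusted p = 0.717) were lost too. That of Dhcr7 held (1.11 ± 0.32, adjusted p = 0.0239). In TPI:NPI 1 gene, Srebf1, was still higher with the marker covariates, and a fit of the NPI and TPI libraries alone called 5 higher. In this comparison the fatty acid synthesis genes other than Scd1 and Fads2 had log2 fold changes between -0.12 and 0.13. The NPI and TPI libraries all carried Y-linked reads, and neutrophil markers summed to 62.8 to 171.5 in NPI and 395.1 to 669.3 in TPI.

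Whether the response itself differed between the cell states was tested as an interaction. For Ag, 11 of 31 genes had a higher log2 change in tolerized cells, against 14.6% of all genes tested, and 2 a lower one, against 7.09%. The 11 genes were Mvd, Dhcr7, Pmvk, Fdps, Acat2, Fdft1, Fads1, Ebp, Srebf1, Insig2 and Lss, among them 5 of the 7 mevalonate and isoprenoid genes. The difference was 1.41 ± 0.27, adjusted p = 0.000461 for Mvd, 1.01 ± 0.20, adjusted p = 0.000764 for Dhcr7 and 0.96 ± 0.28, adjusted p = 0.0164 for Pmvk, each of which fell less in tolerized than in naive cells. Elovl6 rose less in tolerized cells (-1.45 ± 0.17, adjusted p = 2.47e-06), and so did Acly (-0.38 ± 0.11, adjusted p = 0.0105), whose call was lost without N0 or T0 replicate 3. For Fasn the difference of -0.26 ± 0.10, adjusted p = 0.0594 was not called, and for Acaca it was -0.21 ± 0.12, adjusted p = 0.216. Fads1, Pmvk, Ebp and Lss were each lost without 1 to 4 single libraries, and Lss also with the marker covariates, under which the other calls held. DESeq2 called 4 genes with a lower change.

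**Figure D3:**
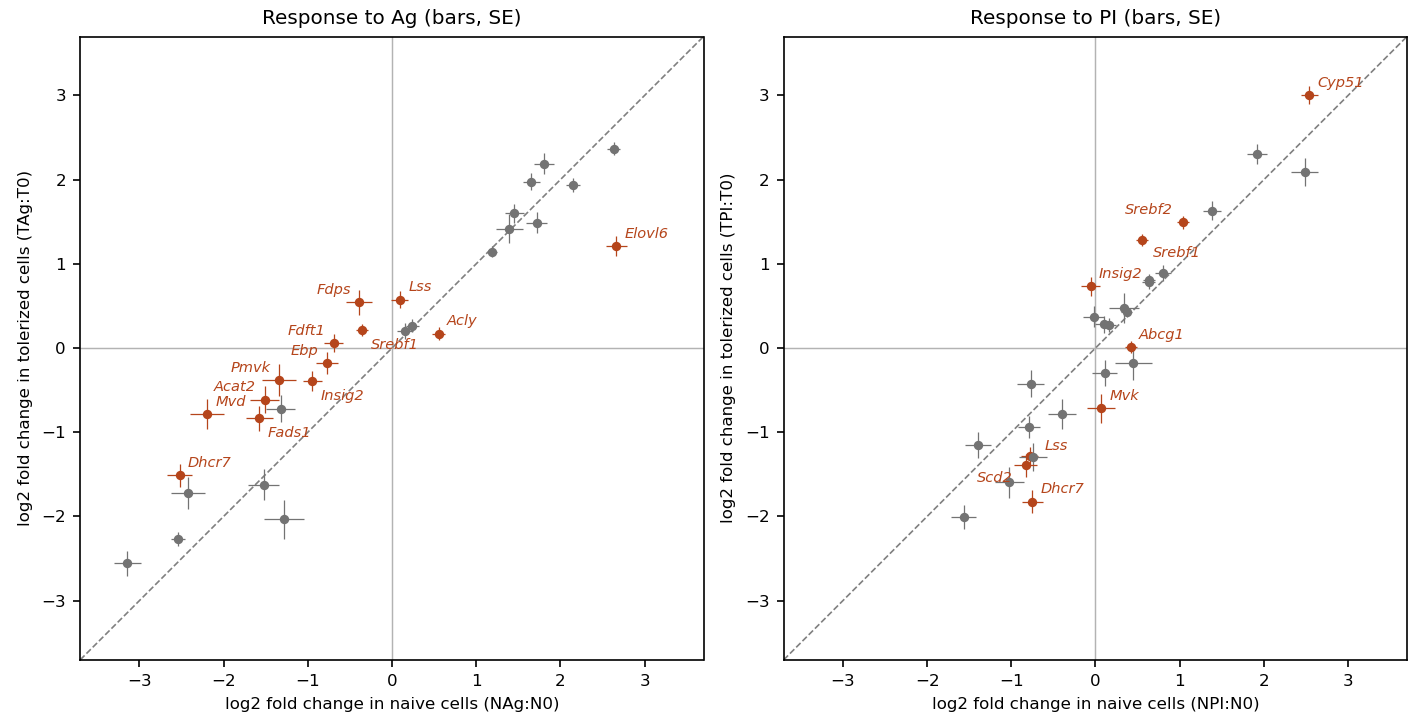
Log2 fold change in tolerized cells (vertical) against that in naive cells (horizontal) after Ag (left) and PI (right) for all genes but Scd1 and Fads2, with SE bars and a dashed line of equal response. Genes whose responses differed at an adjusted p under 0.05 are named in red, and after Ag most lie above the line, as Mvd does at -2.20 and -0.79, while Elovl6 lies below it at 2.66 and 1.21.

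For PI, 4 of 31 genes had a higher change in tolerized cells, against 12.7% of all genes tested, and 5 a lower one, against 7.52%. Insig2 (0.79 ± 0.16, adjusted p = 0.000663), Srebf1 (0.72 ± 0.10, adjusted p = 1.1e-05), Cyp51 (0.47 ± 0.14, adjusted p = 0.0188) and Srebf2 (0.45 ± 0.10, adjusted p = 0.00292) rose more in tolerized cells. Dhcr7 (-1.08 ± 0.19, adjusted p = 0.000182) and Mvk (-0.78 ± 0.24, adjusted p = 0.0202) were the lowest, followed by Scd2 (-0.56), Lss (-0.50) and Abcg1 (-0.41). All NPI and TPI libraries but only 2 of 3 T0 and 0 of 3 N0 libraries held Y-linked reads, and with these reads as a covariate Scd2 and Lss were no longer called. Scd2, Lss and Mvk were also lost when single libraries were left out. The lower genes then numbered 2 without N0 replicate 3, NPI replicate 3 or TPI replicate 1, and 3 without N0 replicate 2 or T0 replicate 1 or 2. With the marker covariates 2 genes had a lower change, Dhcr7 and, not called without them, Elovl6, and Cyp51, Abcg1, Scd2, Lss and Mvk were lost (adjusted p up to 0.189 for Cyp51 and 0.116 for Abcg1), with SEs 1.3 to 1.42 times as wide. The call of Cyp51 was also lost without NPI replicate 1 or TPI replicate 2. A fit of the N0, T0, NPI and TPI libraries alone called 9 lower. Dhcr7 thus fell less in tolerized cells after Ag and more after PI.

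Scd1 was the outlier of the set, with no call in any of 9 comparisons by edgeR (lowest unadjusted p 0.192, in NPI:N0) or by DESeq2. Its NPI:N0 rise was called without N0 replicate 1, the highest N0 library (2.58 ± 0.89, adjusted p = 0.0254, against 1.12 with it). It is a stearoyl-CoA desaturase like Scd2, and lies near it on chromosome 19 (Scd1 at chr19:44468941-44482199 and Scd2 at chr19:44368166-44381354, NCBIM37). Its normalized counts were 332, 47 and 54.5 in N0, 497, 178 and 73.8 in T0, 207, 99.9 and 305 in NAg, 169.5, 120.4 and 221 in TAg, 168, 409 and 367 in NPI and 172, 491 and 441 in TPI. The summed level of 4 B cell markers (Cd79a, Cd79b, Ms4a1 and Pax5) moved with it, being 832.1, 167.0 and 172.5 in the same N0 libraries and 1314, 481.4 and 272.4 in those of T0. In all 6 groups the 3 libraries had the same order in Scd1 and in these markers, against at most 3 groups for any other member. The ratio of Scd1 to the B cell markers ranged from 0.271 to 0.877 over the 18 libraries, while Scd1 itself ranged from 47.0 to 497.1. This pattern was noticed after the values were seen.

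With the B cell markers as a covariate, an alternative chosen after seeing the data, the SE of the Scd1 fold change dropped from 0.81 to 0.14 in TAg:T0. The covariate was picked because these markers and Scd1 shared the order of libraries, so a narrower SE was built in. No call is drawn from this fit. The log2 fold change of Scd1 was then 0.48 ± 0.14 in NAg:N0 and 0.80 ± 0.14 in TAg:T0, where the sign without the covariate was the opposite. It was 1.30 ± 0.13 in NPI:N0, 1.24 ± 0.12 in TPI:T0 and -0.09 ± 0.14 in T0:N0. All 4 B cell markers were detected in each group, and the part of B cells in the Scd1 values was not tested by other means.

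**Figure D4:**
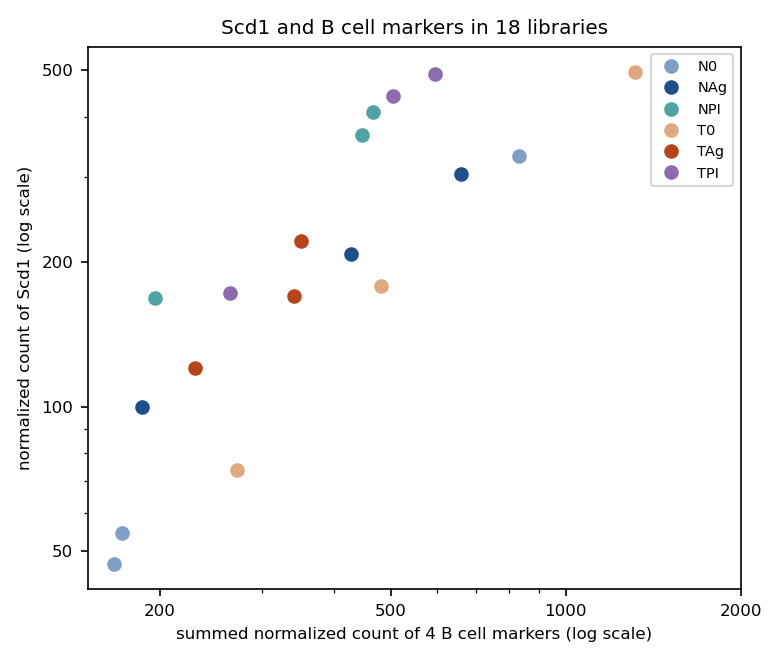
Normalized count of Scd1 (vertical, log scale) against the summed normalized count of 4 B cell markers (horizontal, log scale) in each of the 18 libraries, coloured by group. Within each group the libraries rise together, from 47.0 and 167.0 in N0 replicate 2 to 497.1 and 1314 in T0 replicate 1.

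Fads2, the delta-6 desaturase, was read by 2 to 35 counts per library and is uncertain at this depth. It had 1.98, 2.09 and 4.96 normalized counts in N0 and 23, 11.5 and 16.3 in T0 (2.44 ± 0.54, adjusted p = 0.00229), and 13.2, 5.87 and 6.6 in NAg and 15.4, 16.7 and 35.9 in TAg. Its NAg:N0 rise (1.46 ± 0.61, adjusted p = 0.0396) was lost under 8 alternatives, including the fits without N0 replicate 1 or 2 or NAg replicate 1. The TAg:NAg difference (1.41 ± 0.46, adjusted p = 0.0164) became -0.07 with the marker covariates. It had 4.16, 8.8 and 4.24 normalized counts in NPI and 13.7, 16.5 and 7.99 in TPI.

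Summed over the fatty acid synthesis genes, normalized counts were 25767 to 29864 per library in NAg and 21916 to 22270 in TAg, against 7557 to 8576 at rest. Fasn was the larger part of this sum after Ag. The sum over the 7 mevalonate and isoprenoid genes went the other way in naive cells, 968.8 to 1046 in N0 and 600.3 to 672.0 in NAg, and in tolerized cells was 833.8 to 857.4 in T0 and 786.9 to 926.2 in TAg. The exporters summed to 1659 to 2158 at rest and 331.3 to 504.2 after Ag. These sums follow their most abundant members and are given without a test.

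The second list, of neighbouring pathways, held 32 further genes of sterol and fatty acid metabolism, of which 31 were tested. In NAg:N0, 14 were higher and 15 lower, against 32.1% and 33.4% of all genes tested, and in TAg:T0 13 and 12, against 29.9% and 29.8%. Of the 15 sterol genes 4 rose and 10 fell in NAg:N0, and of the 16 fatty acid genes tested 10 rose and 5 fell. Fabp5, a fatty acid carrier, rose from 32.7, 27.1 and 24.8 normalized counts in N0 to 562, 672 and 672 in NAg (4.49 ± 0.16, adjusted p = 8.46e-18), and was at 31, 45.9 and 45.1 in T0 and 381, 384 and 452 in TAg (3.32 ± 0.15, adjusted p = 1.36e-15). Acss2, which makes acetyl-CoA from acetate and so serves the same pool as Acly, fell from 1083, 1450.1 and 1420.1 to 75.5, 48.2 and 71.5 (-4.34 ± 0.15, adjusted p = 2.46e-17) and from 979, 925 and 901 to 154, 108 and 137 (-2.81 ± 0.13, adjusted p = 1.56e-14). Cpt1a, which takes fatty acids into mitochondria for burning, fell from 1322, 1515 and 1811 in N0 to 179.8, 108 and 190.3 in NAg (-3.28 ± 0.23, adjusted p = 9.47e-09). Elovl7, another elongase, fell in TAg:T0 (-2.83 ± 0.28, adjusted p = 3.1e-09), from 69.9, 96.3 and 55.6 to 11, 9.54 and 10.2.

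After PI the second list had 14 genes higher and 13 lower in NPI:N0, against 28.6% and 32.7% of all genes tested, and 12 and 12 in TPI:T0, against 32% and 36.3%. Slc25a1, the mitochondrial citrate carrier that feeds Acly, had 142, 146 and 136 normalized counts in N0, 723, 896 and 823 in NPI, 159, 147 and 137 in T0 and 1069.7, 994 and 1045 in TPI, log2 fold changes of 2.53 ± 0.10, adjusted p = 3.65e-16 and 2.81 ± 0.10, adjusted p = 1.87e-17. Acsl3, an acyl-CoA synthetase, rose by 2.78 ± 0.11, adjusted p = 1.39e-16 and 3.03 ± 0.11, adjusted p = 3.65e-17. Fabp5 rose by 2.53 ± 0.17, adjusted p = 3.48e-12 in NPI:N0. Acsl4, of the same family as Acsl3, rose by 2.89 ± 0.08, adjusted p = 3.11e-19 in TPI:T0, and its response to Ag was weaker in tolerized cells (-1.73 ± 0.11, adjusted p = 1.43e-10). It had 7027, 7922 and 8436 in NAg and 2031, 2158 and 2207 in TAg, from 1168, 1093 and 1099.8 in N0 and 948, 1036 and 1068 in T0.

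Between cell states the second list had 1 gene higher and 13 lower in T0:N0, against 8.42% and 12% of all genes tested. These became 0 and 1 with the marker covariates and 0 and 6 with the Y-linked covariate. In TAg:NAg 8 were higher and 9 lower, against 20.9% and 18.5%, and 1 and 5 with the marker covariates. In TPI:NPI 8 were higher and 11 lower, against 18.2% and 19.7%, and 5 and 7 with the marker covariates. Elovl7 (-0.82), Acsl3 (-0.81) and Acacb, the mitochondrial acetyl-CoA carboxylase (0.78), differed most in T0:N0. Acsl4 (-1.87), Nr1h3, the sterol receptor LXR alpha (-1.73), and Acsl3 (-1.49) differed most in TAg:NAg. Nr1h3 had only 37.15, 11.75 and 7.7 normalized counts in NAg and 5.5, 8.35 and 3.07 in TAg, and these values overlap. The highest was in NAg replicate 1, the library highest in macrophage markers, and the part of macrophages in it was not tested. In TPI:NPI the widest differences were those of Acss2 (-1.23), Elovl7 (-0.99) and Npc2, which carries cholesterol out of lysosomes (-0.82). Acacb (-1.61) and Acss2 (1.53) followed Acsl4 in the difference of the Ag response, and Hacd3 (0.83), Acss2 (-0.73) and Hsd17b12 (0.71) led that of the PI response. Hacd3 and Hsd17b12 work with the elongases.

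RefSeq promoters (GRCm38.p6, 250 bases before to 50 after a start) were at hand for 24 of the 32 genes, with 32 windows. The sterol regulatory element core TCACNCCAC, searched on both strands, was found in 1 gene, Hmgcs1, and in 1.24% of all 32851 promoters, or 1.44% of all genes. The E box CACGTG was found in 5 genes (Abca1, Dhcr7, Hsd17b7, Insig1 and Scap) and in 7.15% of promoters, or 8.09% of all genes. CCAAT, searched on both strands, was found in 18 of the 24 genes and in 37.4% of promoters, or 41.1% of all genes. Genes that rose and genes that fell in NAg:N0 both held it, 7 of 11 and 9 of 11 with a window. No match says only that these letters are not in the window.

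Promoters of 2 genes that rose after Ag (Fasn, at chr11:120824498-120824797 on the minus strand, and Cyp51, at chr5:4104648-4104947 on the minus strand) and 2 that fell (Mvk, at chr5:114444019-114444318 on the plus strand, and Mvd, at chr8:122443373-122443672 on the minus strand) are shown because they hold the same motif while their counts moved apart. CCAAT, or ATTGG where it lies on the other strand, is in capitals.
Fasn: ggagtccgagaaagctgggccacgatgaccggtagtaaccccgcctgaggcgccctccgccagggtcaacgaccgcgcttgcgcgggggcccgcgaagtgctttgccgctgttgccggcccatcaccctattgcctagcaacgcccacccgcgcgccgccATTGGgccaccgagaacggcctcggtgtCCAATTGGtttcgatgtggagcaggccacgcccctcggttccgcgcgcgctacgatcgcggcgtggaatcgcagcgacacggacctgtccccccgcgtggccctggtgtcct
Cyp51: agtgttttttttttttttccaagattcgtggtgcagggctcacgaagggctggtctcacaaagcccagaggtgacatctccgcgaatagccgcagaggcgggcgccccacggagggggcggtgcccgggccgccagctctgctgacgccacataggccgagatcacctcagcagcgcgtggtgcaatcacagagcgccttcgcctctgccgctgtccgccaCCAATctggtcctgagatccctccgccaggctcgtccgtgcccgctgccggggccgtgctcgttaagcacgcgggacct
Mvk: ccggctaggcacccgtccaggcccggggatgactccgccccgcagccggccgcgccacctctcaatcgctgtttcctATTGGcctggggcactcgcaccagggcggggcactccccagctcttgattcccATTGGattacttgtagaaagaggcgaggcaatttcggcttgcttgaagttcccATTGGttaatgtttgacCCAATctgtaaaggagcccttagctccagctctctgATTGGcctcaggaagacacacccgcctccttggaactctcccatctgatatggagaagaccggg
Mvd: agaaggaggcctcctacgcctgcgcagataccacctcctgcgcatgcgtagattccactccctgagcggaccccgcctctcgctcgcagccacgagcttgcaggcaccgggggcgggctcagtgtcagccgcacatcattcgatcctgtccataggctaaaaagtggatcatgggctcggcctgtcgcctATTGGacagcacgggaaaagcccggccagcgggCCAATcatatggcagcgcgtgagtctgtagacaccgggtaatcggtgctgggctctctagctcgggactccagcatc
In these windows Fasn has 3 matches, 2 of them overlapping in 1 stretch, Cyp51 has 1, Mvk 5 and Mvd 2, and none of the 4 holds the sterol element core or the E box. Mvk, with the most matches, fell by 2.42 on the log2 scale in NAg:N0.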

How the data were processed

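RNA-seq counts were analysed for 18 libraries in 6 groups of 3, grouped by the labels. Raw read counts per gene were deposited by the authors, who according to the submitters' processing notes used TopHat2 2.1.1 and HTSeq 0.9.1 with genome build mm9. DESeq2 1.18 and edgeR 3.24 are named there as well, and the strand setting is not given in the sources used here. The last row of each file names no gene and was left out. Counts were TMM-scaled and fitted with edgeR 4.0.16 (glmQLFit, robust, 1 mean per group, R 4.3.3), keeping genes whose mean normalized count reached 3 in 1 or more groups, and tested with glmQLFTest at a Benjamini-Hochberg adjusted p under 0.05. The fit was tested on simulated data with known changes. Those data had the same dispersion in every gene and no outlying libraries, so they say nothing about spread such as that of Scd1. Some genes are not reported here and were left out of the marker and pathway lists. Members and lists were chosen with earlier results of these data known. Per-library values were given for the 3 largest rises and falls of each comparison, the sensors and exporters, and members that moved against their role, and from the second list the 3 largest changes of each comparison were named. Alternatives were DESeq2 1.42.0, its size factors, no filter, a replicate block, marker and Y-linked covariates, only the groups compared, and leaving out each library. The study calls the 3 replicates of a group biological, and the number of mice in each is not given in the sources used here.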

Additional observations from a re-analysis of the deposited data

Results flagged for a closer look

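These results were marked because the response in tolerized cells differed from that in naive cells by edgeR's interaction test, each given as the difference of the log2 fold changes (tolerized minus naive) with its SE. No group had more than 3 libraries, so single libraries were not screened for outlying values.

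After Ag the change was higher in tolerized cells for Mvd (1.41 ± 0.27, adjusted p = 0.000461), Dhcr7 (1.01 ± 0.20, adjusted p = 0.000764), Pmvk (0.96 ± 0.28, adjusted p = 0.0164), Fdps (0.93 ± 0.22, adjusted p = 0.00295), Acat2 (0.90 ± 0.23, adjusted p = 0.00702), Fdft1 (0.75 ± 0.16, adjusted p = 0.00103), Fads1 (0.74 ± 0.22, adjusted p = 0.0175), Ebp (0.60 ± 0.18, adjusted p = 0.0215), Srebf1 (0.57 ± 0.10, adjusted p = 0.000218), Insig2 (0.55 ± 0.17, adjusted p = 0.0176) and Lss (0.48 ± 0.14, adjusted p = 0.0189). It was lower for Elovl6 (-1.45 ± 0.17, adjusted p = 2.47e-06) and Acly (-0.38 ± 0.11, adjusted p = 0.0105).

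After PI the change was higher in tolerized cells for Insig2 (0.79 ± 0.16, adjusted p = 0.000663), Srebf1 (0.72 ± 0.10, adjusted p = 1.1e-05), Cyp51 (0.47 ± 0.14, adjusted p = 0.0188) and Srebf2 (0.45 ± 0.10, adjusted p = 0.00292). It was lower for Dhcr7 (-1.08 ± 0.19, adjusted p = 0.000182), Mvk (-0.78 ± 0.24, adjusted p = 0.0202), Scd2 (-0.56 ± 0.19, adjusted p = 0.0371), Lss (-0.50 ± 0.15, adjusted p = 0.0212) and Abcg1 (-0.41 ± 0.10, adjusted p = 0.0068). Dhcr7, Insig2, Srebf1 and Lss appear after both stimuli, Insig2 and Srebf1 with the same sign and Dhcr7 and Lss with opposite signs, but both tests use the same resting libraries.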

How the results depend on the processing

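Of 276 recomputed counts of called members, 250 stayed within 1.5 times the value reported and 26 did not, and the cause was not tested. In T0:N0, with 4 genes higher and 8 lower, the marker covariates gave 0 and 0, the Y-linked covariate 1 higher, the B cell covariate (chosen after seeing the data) 5 lower, a fit of only the groups compared 2 lower, and leaving out 1 library 2 to 4 higher and 5 to 6 lower. In TAg:NAg, with 13 and 10, the marker covariates gave 2 higher and 1 lower, and leaving out 1 library 6 to 10 lower. In TPI:NPI, with 2 higher, the marker covariates gave 1 and only the groups compared 5. For the difference in the Ag response, with 2 lower, DESeq2 gave 4 and leaving out 1 library 1 to 3. For that in the PI response, with 5 lower, the marker covariates gave 2, the Y-linked covariate 3, only the groups compared 9, and leaving out 1 library 2 to 4. The sign turned for Scd1 in TAg:T0 with the B cell covariate (0.80) and, with the marker covariates, for Abca1 (-0.079) and Scd2 (-0.11) in T0:N0 and Fads2 in TAg:NAg (-0.069). Of 166 called member results, 107 were called with the same sign in all alternatives and 59 were lost in at least 1.

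Same-numbered libraries did not consistently deviate together: of 45 correlations of their deviations from the group means, 8 were over 0.1, with a range of -0.486 to 0.237. In addition, 0 of 18 libraries correlated best with their own number in every other group, but this strict condition cannot exclude a partial pairing. The main fit did not pair libraries by number. With the replicate block the counts higher and lower were 11 and 16 in NAg:N0, 4 and 7 in T0:N0, 12 and 9 in TAg:NAg, 3 and 8 in TPI:NPI and 5 and 4 for the PI response, and unchanged in TAg:T0 (13 and 11), NPI:N0 (11 and 10), TPI:T0 (15 and 11) and the Ag response (11 and 2). Depth limits Fads2, with 2 to 35 reads per library, more than the other members.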
